A study of Mus musculus with 8 samples.

Results

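The glutathione transferases described here are 10 genes of the 21303 genes tested on 8 microarrays of mouse small intestine. They are the mu-class genes Gstm1, Gstm2, Gstm3, Gstm4 and Gstm5, the alpha-class genes Gsta1 and Gsta4, the pi-class gene Gstp1, the theta-class gene Gstt1 and the microsomal gene Mgst1. They were picked by name, through the RefSeq accessions of the array's probes, but with earlier results of these data known. Counts of these genes set beside all genes are therefore descriptions and not an independent test. All 17 of their probes were well above background on all 8 arrays, so that none of the 10 was lost to the filter on dim probes.

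The mice of all groups were C57BL/6J Min/+, a strain with a truncating mutation in 1 copy of the Apc tumour suppressor gene that develops intestinal adenomas, and no mice without that mutation were measured. The 4 groups, of 2 arrays each, were Western male, Western female, Control male and Control female. The Western mice ate a diet modified from AIN-93G, with much fat and with little fibre, vitamin D, calcium and folate. Milk supplied 66.4% of its fat, and oils of rapeseed and sunflower the other 33.6%. The Control mice ate the semisynthetic AIN-93G diet without changes. The labels give the age of the mice only through a feeding time of 18 months, which was not checked, and 1 to 3 mice contributed RNA to each array. The labels do not say whether the RNA came from normal mucosa or adenomas, or whether the 2 arrays of a group held different mice, so a p-value here compares a difference with the spread of these arrays alone, part of which may be technical. All values below are log2 signals relative to the 75th percentile of the same array, and all errors are the SD between arrays or, for fitted differences, the standard error (SE). A signal depends on its probe, so levels are compared between arrays and not between genes. In whole tissue, fewer cells of a type and less RNA per cell cannot be told apart.

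Glutathione transferases join the tripeptide glutathione to reactive electrophiles such as dietary toxicants and products of lipid oxidation. The soluble enzymes fall into classes by sequence, and the microsomal ones are membrane proteins of a separate family. In the small intestine they belong to the detoxification system of the absorbing epithelial cells, and several are known targets of the transcription factor Nrf2, which acts through antioxidant response elements. Substrates overlap between classes, and genes of 1 class often lie side by side in the genome with similar sequences.

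Several facts about the libraries touch the values below. The library labelled Control female 1 carried the Y-linked transcripts Ddx3y (-0.46), Eif2s3y (1.90) and Uty (-2.71) at levels like those of the 4 male arrays. Its deposited file is also named with the abbreviation used for the Western diet. It was kept in its labelled group, and results that rest on it are given with and without it. Control female 2 had 75.6% of probes well above background, against 55.1% to 61.9% on the others. The first array of every group was on slide 1, so the Control female array there was the library labelled Control female 1. Values within slide 1 therefore rest on that library, except for the male diet differences. Western male 2 was alone on slide 2, and Western female 2, Control male 2 and Control female 2 shared slide 3, the only slide scanned on day 2. All 13 enterocyte markers, such as Vil1 and Fabp1, were well above background on all 8 arrays.

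The start regions of the 2 genes with the widest range over the arrays, Gstm3 and Gstm1, are printed here because their signals moved together. RefSeq promoter entries (GRCm38.p6) were found for 9 of the 10 genes, in 12 entries. Gsta4 had none. Each sequence below is the 250 bases before the start of transcription on chromosome 3, on the minus strand, read 5′ to 3′. Capitals mark the 2 runs of at least 8 bases that the optimal alignment of the 2 sequences matched without a break.
Gstm1 (chr3:108017819-108018068): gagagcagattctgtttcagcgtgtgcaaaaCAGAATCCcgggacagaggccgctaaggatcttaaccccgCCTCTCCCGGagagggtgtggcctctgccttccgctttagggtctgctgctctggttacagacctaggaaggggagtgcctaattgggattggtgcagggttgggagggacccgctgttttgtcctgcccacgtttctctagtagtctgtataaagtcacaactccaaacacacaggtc
Gstm3 (chr3:107969175-107969424): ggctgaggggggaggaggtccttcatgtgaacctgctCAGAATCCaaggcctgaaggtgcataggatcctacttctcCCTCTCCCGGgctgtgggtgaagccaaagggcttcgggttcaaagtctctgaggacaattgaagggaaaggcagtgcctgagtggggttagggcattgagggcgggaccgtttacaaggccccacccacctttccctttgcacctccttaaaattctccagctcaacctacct
The 2 sequences had 154 identical bases of 250 after alignment. Every other pair of promoter entries from different Gstm genes among the 5 had 120 to 138. Gstm2 and Gstm4, whose signals were the most alike of the 10 over the arrays, had 126 and 129. Whether likeness in sequence goes with likeness in signal was not tested.

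Motifs were searched on both strands of the 300 bases from 250 before to 50 after each start. TGACNNNGC, the core of the antioxidant response element, was found in 2 of the 12 entries, those of Gstm5 and Mgst1, and in 12.4% of all 32851 RefSeq promoter entries. The AP-1 motif TGACTCA was found in 2 entries, those of Gstp1 and Gstm5, and in 5.2% of all entries. These 3 windows show the matches in capitals with their flanks.
Gstm5, TGACNNNGC (chr3:107895792-107895840, plus strand): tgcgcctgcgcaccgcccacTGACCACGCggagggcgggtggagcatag
Mgst1, TGACNNNGC read on the other strand (chr6:138140451-138140499, plus strand): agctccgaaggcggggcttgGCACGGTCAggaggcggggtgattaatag
Gstp1, TGACTCA read on the other strand (chr19:4037960-4038006, minus strand): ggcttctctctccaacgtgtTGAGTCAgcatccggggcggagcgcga
The dioxin response element core GCGTG was in 5 entries, against 32.4% of all entries. These were the entries of Gstm5, Gsta1 and Gstp1 and 2 overlapping entries of Gstm1, which held the same match. In Gstm5, GCGTG overlapped TGACNNNGC and TGACTCA at 1 place each. TATAAA was in 2 entries, those of Gstm1 and Gstm5, against 13.6% of all. A match is a description of letters and not a site.

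The first comparison, Western against Control diet averaged over the sexes, gave signals that were higher on the Western diet for 9 of the 10 genes. Gstm3 had the largest difference of the 10 (2.38-fold), Gstm1 was next (2.1-fold), and only Gsta4 was lower. The median over the 10 genes was 0.306, against -0.057 over all 21303 genes, 40.5% of which were higher. None of the 10 passed an adjusted p of 0.05 with limma, and neither did any other gene, a share of 0% of the genes. At an unadjusted p under 0.05, limma called 911 genes, 138 of them higher on the Western diet, or 0.648% of the genes tested. Gstm3 was the only one of the 10 among these. The lowest adjusted p of any gene was 0.124, and the lowest among the 10 was 0.995. None of the 10 had all 4 Western arrays above all 4 Control arrays, a pattern shown by 0.864% of genes. Markers of other cell types differed between the diets too. All 5 measured erythrocyte markers were higher on the Western diet (median log2 difference 1.382), and 5 of 7 mast cell markers were (median 1.261). The summed erythrocyte signal, in multiples of the 75th percentile, was 53.25 to 150.1 on the Western arrays and 16.41 to 73.12 on the Control arrays. The summed mast cell signal was 1.064 to 4.24 on the Western arrays and 0.5788 to 1.483 on the Control arrays. All 8 smooth muscle markers (median -1.296), all 5 measured neuron and glia markers (median -0.705) and all 7 goblet cell markers (median -0.101) were lower on the Western diet. The summed smooth muscle signal was 8.886 to 20.56 on the Western arrays and 6.144 to 49.13 on the Control arrays. Of 13 enterocyte markers, 6 were higher and 7 lower (median -0.035), 3 of the lower ones at an unadjusted p under 0.05 with limma. Of all 21303 genes, 773 were lower at that threshold. All 6 measured stem cell and proliferation markers were lower (median -0.179), and all 6 B and plasma cell markers were higher (median 0.306). The sexes differed here: the median was -0.479 in males and 0.143 in females for stem cell and proliferation markers. For B and plasma cell markers it was -0.432 and 0.941, and for smooth muscle -2.288 and 0.051. No smooth muscle, neuron and glia, stem cell or B cell marker had an unadjusted p under 0.05 with limma in the averaged comparison. The part of these markers in the result was not tested.

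**Figure D1:**
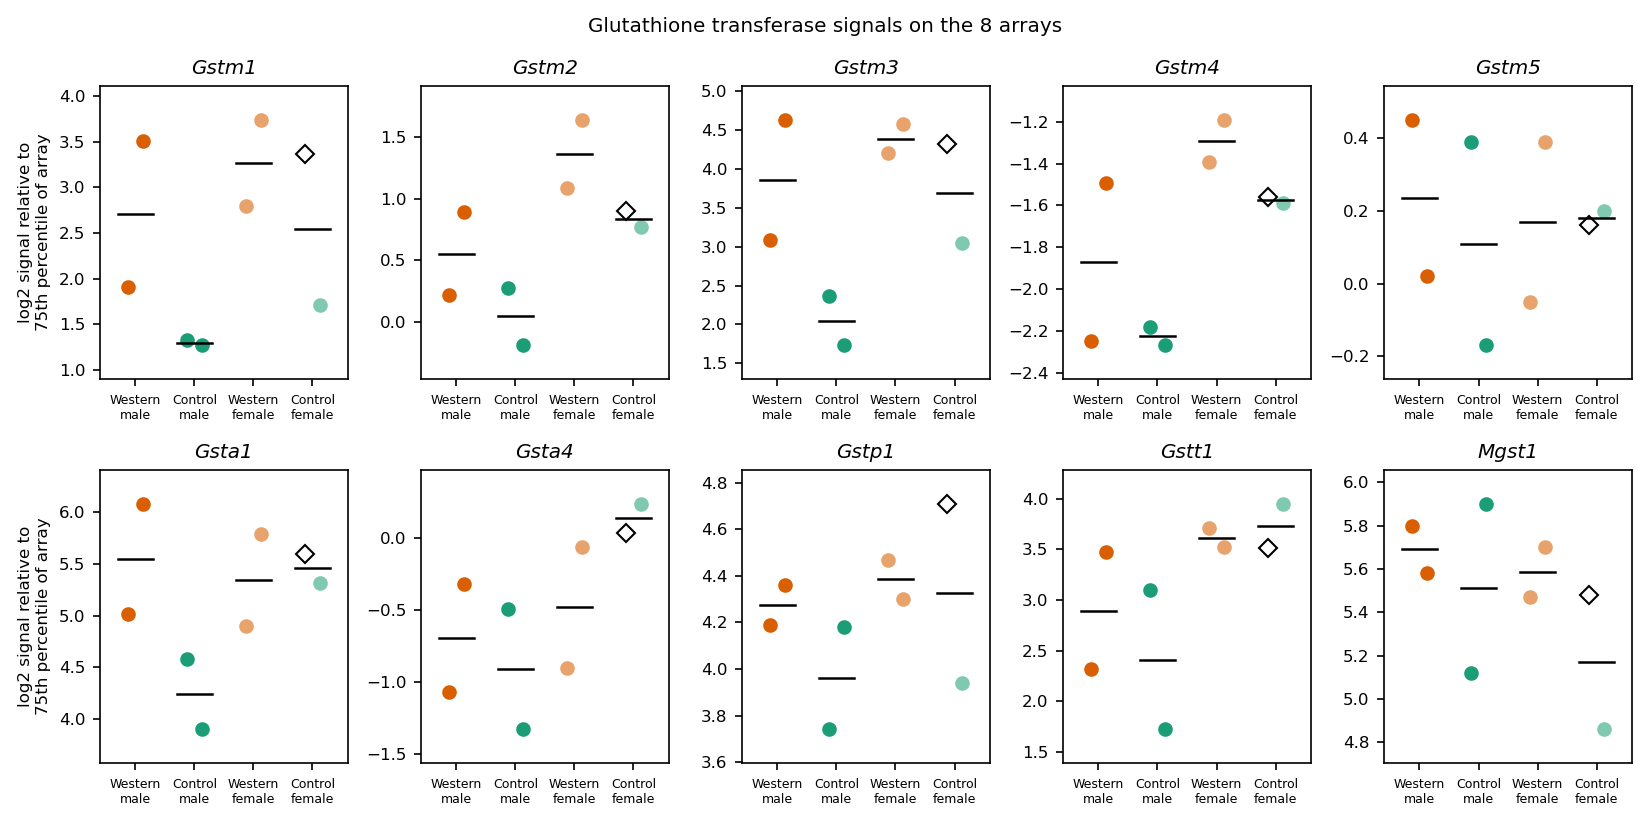
Log2 signal relative to the 75th percentile of the array (vertical axis, a different range in each panel) of the 10 glutathione transferases. Points are the 2 arrays of each group, bars their mean, and the open diamond is the library labelled Control female 1. For Gstm1 and Gstm3 that diamond lies within the range of the Western arrays, and the other 3 Control arrays lie below it.

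Gstm3 encodes a mu-class subunit. It measured 3.09 and 4.63 in Western males and 4.20 and 4.58 in Western females, against 2.37 and 1.73 in Control males and 4.32 and 3.05 in Control females. The 4 Western arrays lay above the Control arrays except for the library labelled Control female 1, which was higher than 2 of them. The mean was 4.12 ± 0.72 on the Western arrays and 2.87 ± 1.11 on the Control arrays (SD, n = 4 each). The fitted difference was 1.25 ± 0.45 SE (limma, unadjusted p = 0.0323, adjusted p = 0.995). Without the library labelled Control female 1 it was 1.57 ± 0.44 SE, or 2.97-fold. It ranged from 0.87 without Western male 2 to 1.64 without Western male 1. Within slide 1, which compares 1 array per group and holds the library labelled Control female 1, it was 0.29. The females of slide 3, with Control female 2, differed by 1.53. With slide as a block it was 0.74, and with slide or scan day as a block none of the 10 genes had an unadjusted p under 0.05 in the diet comparison averaged over the sexes.

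Gstm1 encodes another mu-class subunit. It measured 1.91 and 3.51 in Western males and 2.80 and 3.74 in Western females, against 1.33 and 1.27 in Control males and 3.37 and 1.71 in Control females. Here too the library labelled Control female 1 lay among the Western arrays, and the other 3 Control arrays lay below all of them. The mean was 2.99 ± 0.82 on the Western arrays and 1.92 ± 0.98 on the Control arrays, or 1.44 ± 0.24 on the 3 Control arrays without that library. The difference was 1.07 ± 0.52 SE (limma, adjusted p = 0.995) with all arrays and 1.48 ± 0.47 SE, or 2.79-fold, without the library labelled Control female 1. It was 0.66 without Control female 2 and 0.67 without Western male 2. Within slide 1, where the Control female array was the library labelled Control female 1, it was 0.01. Between the females of slide 3, with Control female 2, it was 2.02. With slide as a block it was 0.60.

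The remaining mu-class genes differed less between the diets. Gstm2 measured 0.22 and 0.89 in Western males and 1.09 and 1.64 in Western females, against 0.28 and -0.19 in Control males and 0.90 and 0.77 in Control females. Its diets overlapped, and its difference of 0.52 ± 0.24 SE (limma, adjusted p = 0.995) was 0.51 in males and 0.52 in females. Gstm4 measured -2.25 and -1.49 in Western males and -1.39 and -1.19 in Western females, against -2.18 and -2.27 in Control males and -1.56 and -1.59 in Control females. On the probe with the higher mean, both Western female arrays of Gstm4 were above both Control female arrays, and in males Western male 1 was not. Its difference was 0.32 ± 0.20 SE (adjusted p = 0.995). Gstm5, the dissimilar member of the mu class in these data, lay between -0.17 and 0.45 on all 8 arrays, and its diets differed by 0.06 ± 0.21 SE.

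Gsta1 encodes an alpha-class subunit, a class that also reduces lipid hydroperoxides. It measured 5.02 and 6.08 in Western males and 4.90 and 5.79 in Western females, against 4.58 and 3.90 in Control males and 5.60 and 5.32 in Control females. The 2 Western male arrays were above the 2 Control male arrays, and the female arrays overlapped. Averaged over the sexes the difference was 0.60 ± 0.34 SE (limma, adjusted p = 0.995). Within slide 1 it was -0.13. Gsta4, which encodes the alpha-class enzyme for the lipid aldehyde hydroxynonenal, was spotted 10 times per array with an SD between spots of 0.036 to 0.101. It measured -1.07 and -0.32 in Western males and -0.90 and -0.06 in Western females, against -0.49 and -1.33 in Control males and 0.04 and 0.24 in Control females. The 2 Control female arrays were the highest of the 8. Its difference of -0.20 ± 0.32 SE was the only negative one, and the spread between arrays of a group exceeded that between spots.

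Gstp1, the pi-class gene, measured 4.19 and 4.36 in Western males and 4.47 and 4.30 in Western females, against 3.74 and 4.18 in Control males and 4.71 and 3.94 in Control females. The 4 Western arrays lay in a narrow span above 3 of the Control arrays, with the library labelled Control female 1 above all of them. The difference was 0.19 ± 0.23 SE with all arrays, 0.38 ± 0.20 SE without that library and -0.01 ± 0.20 SE without Control female 2. Gstt1, a theta-class gene whose enzyme acts on small halogenated molecules, measured 2.32 and 3.47 in Western males and 3.71 and 3.52 in Western females, against 3.1 and 1.72 in Control males and 3.51 and 3.95 in Control females. Its diets overlapped and differed by 0.18 ± 0.40 SE. Mgst1, the membrane-bound member, measured 5.80 and 5.58 in Western males and 5.47 and 5.70 in Western females, against 5.12 and 5.90 in Control males and 5.48 and 4.86 in Control females. Its difference was 0.30 ± 0.25 SE, and the highest and the lowest array were both Control arrays.

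Leaving out the library labelled Control female 1 changed which genes separated the diets. Then 3 of the 10 genes, Gstm1, Gstm3 and Gstp1, had all 4 Western arrays above the 3 Control arrays left, as did 2.18% of all genes. For Gstp1 this rested on 4.19 on Western male 1 against 4.18 on Control male 2. Its second probe did not show it, with 3.23 against 3.24 on the same arrays. The number of genes with a higher signal on the Western diet was 9 of 10 without it and 8 of 10 without Control female 2. With each array left out in turn it ran from 7 of 10 without Control male 2 to 10 of 10 without Western female 1 or Control male 1. Leaving out either Control female array left 1 array in that group, so its spread was taken from the other groups. The p-values of these fits are therefore not given for the 10 genes.

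**Figure D2:**
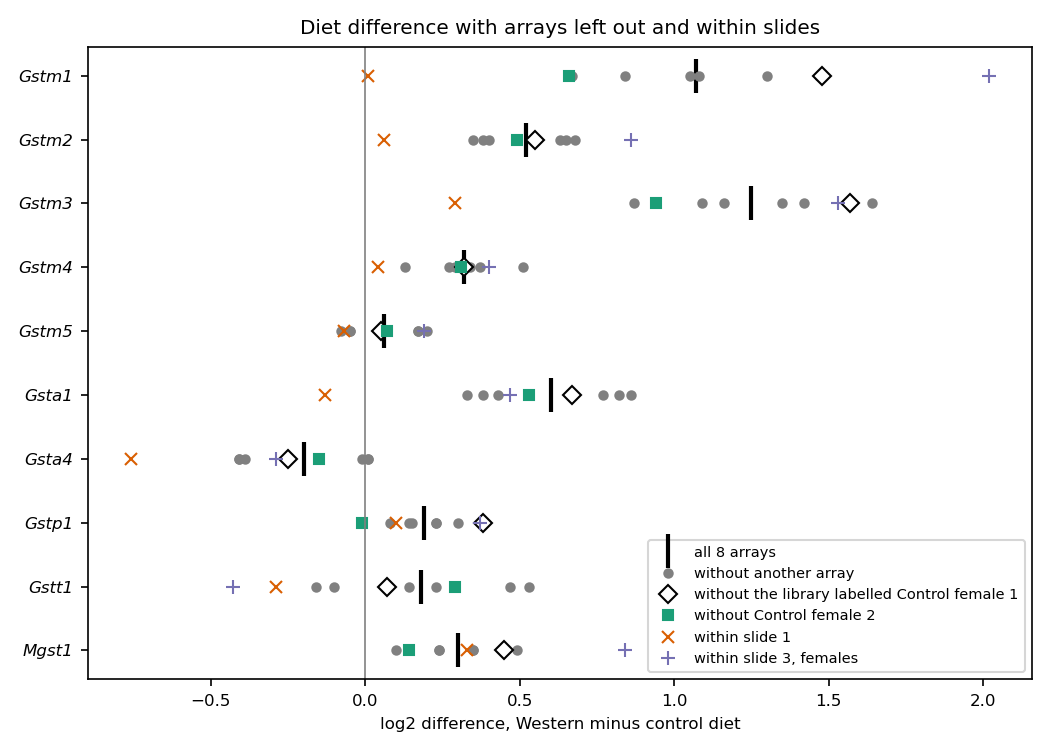
Log2 difference between Western and Control diet averaged over the sexes (horizontal axis) for each gene, with all arrays (bar), with 1 array left out (circles, square and diamond) and within slides (crosses). Within slide 1 the differences of Gstm1 and Gstm3 were 0.01 and 0.29, below every value with 1 array left out. The Control female array of slide 1 was the library labelled Control female 1.

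Most of these genes had more than 1 probe. Their diet differences averaged over the sexes were of similar size except for Gstm4. The second Gstm1 probe gave a diet difference of 1.09 ± 0.55 SE, against 1.07 for the first. The second Gstm3 probe gave 1.02 ± 0.46 SE and was not under 0.05 (limma across probes, unadjusted p = 0.0673, and 0.0513 in males). The 2 further Gstm2 probes gave 0.46 and 0.47. The second probes of Gstp1 and Mgst1 gave 0.21 and 0.24. The second Gstm4 probe gave 0.61 ± 0.31 SE, against 0.32. In males it gave 0.89, against 0.36, and in females 0.32, against 0.28. On that probe the diets overlapped in females and not in males, the reverse of the first probe. Close paralogs may share probes' targets by cross-hybridisation, and with no probe or transcript sequences at hand this was not tested. By gene order in RefSeq, Gstm5, Gstm7, Gstm6, Gstm3, Gstm2, Gstm1 and Gstm4 follow each other on chromosome 3, so the values of these 5 genes may not be independent.

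The second comparison asked for the diet difference within each sex. In males all 10 genes were higher on the Western diet, with a median of 0.420, while 48.7% of all genes were higher. In females 6 of the 10 were higher, with a median of 0.169, while 36.8% of all genes were higher. No gene passed an adjusted p of 0.05 with limma in males (0% of genes) or in females (0%), where 277 and 1086 genes had an unadjusted p under 0.05. In males, Gstm3 and Gsta1 were among the 0.582% of genes that were higher at an unadjusted p under 0.05. Both Western male arrays were above both Control male arrays for 4 of the 10 genes, Gstm1, Gstm3, Gsta1 and Gstp1, and for 12.1% of all genes. On the second Gstp1 probe Western male 1 (3.23) was not above Control male 2 (3.24).

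In males Gstm3 averaged 3.86 ± 1.09 on the Western arrays and 2.05 ± 0.46 on the Control arrays (SD, n = 2 each). The difference was 1.81 ± 0.64 SE, or 3.5-fold (limma, unadjusted p = 0.0302, adjusted p = 1). In females it averaged 4.39 ± 0.27 on the Western arrays and 3.69 ± 0.90 on the Control arrays, a difference of 0.70 ± 0.64 SE, which was 1.34 without the library labelled Control female 1 and 0.07 without Control female 2. Gstm1 differed by 1.41 ± 0.74 SE in males and by 0.73 ± 0.74 SE in females. The female difference of Gstm1 was 1.56 without the library labelled Control female 1 and -0.10 without Control female 2. The 2 Control female arrays thus lay far apart for both genes, with the library labelled Control female 1 higher.

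Gsta1 averaged 5.55 ± 0.75 on the Western and 4.24 ± 0.48 on the Control male arrays, a difference of 1.31 ± 0.49 SE, or 2.48-fold (limma, unadjusted p = 0.0357, adjusted p = 1). In females it averaged 5.35 ± 0.63 on the Western and 5.46 ± 0.20 on the Control arrays, a difference of -0.11 ± 0.49 SE. Gsta4 differed by 0.22 ± 0.45 SE in males and by -0.62 ± 0.45 SE in females. Within slide 1 the male differences were 0.71 for Gstm3, 0.58 for Gstm1 and 0.44 for Gsta1, all smaller than with both arrays. Slide 3 held no Western male array. With slide as a block the male differences were 0.78 for Gstm3, 0.48 for Gstm1 and 0.77 for Gsta1, and with slide or scan day as a block none of the 10 genes had an unadjusted p under 0.05 in males.

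Markers of other cell types also differed between the diets within each sex. Of 7 mast cell markers, 5 were higher in Western males (median 2.136), all 5 at an unadjusted p under 0.05 with limma, as were 0.582% of all genes. The summed mast cell signal was 4.24 and 1.963 in Western males, against 1.177 and 0.6832 in Control males. All 8 smooth muscle markers were lower in Western males (median -2.288), and their summed signal was 8.886 and 11.09 in Western males, against 49.13 and 6.144 in Control males. All 7 measured fibroblast markers were lower as well (median -0.982), with a summed signal of 3.23 and 1.109 in Western males, against 12.27 and 1.386 in Control males. The high muscle and fibroblast values were those of Control male 1. In females all 5 measured erythrocyte markers (median 2.296) and all 6 B and plasma cell markers (median 0.941) were higher on the Western diet. Of 6 measured fat cell markers, 5 were higher (median 1.719), and of 13 enterocyte markers, 12 were lower (median -0.073). Of the 8 smooth muscle markers, 4 were higher and 4 lower (median 0.051). The part of these markers in the diet differences of either sex was not tested. Without Control male 1 the male differences were 2.13 for Gstm3, 1.44 for Gstm1 and 1.65 for Gsta1, and without Western male 2 they were 1.04, 0.61 and 0.78.

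**Figure D3:**
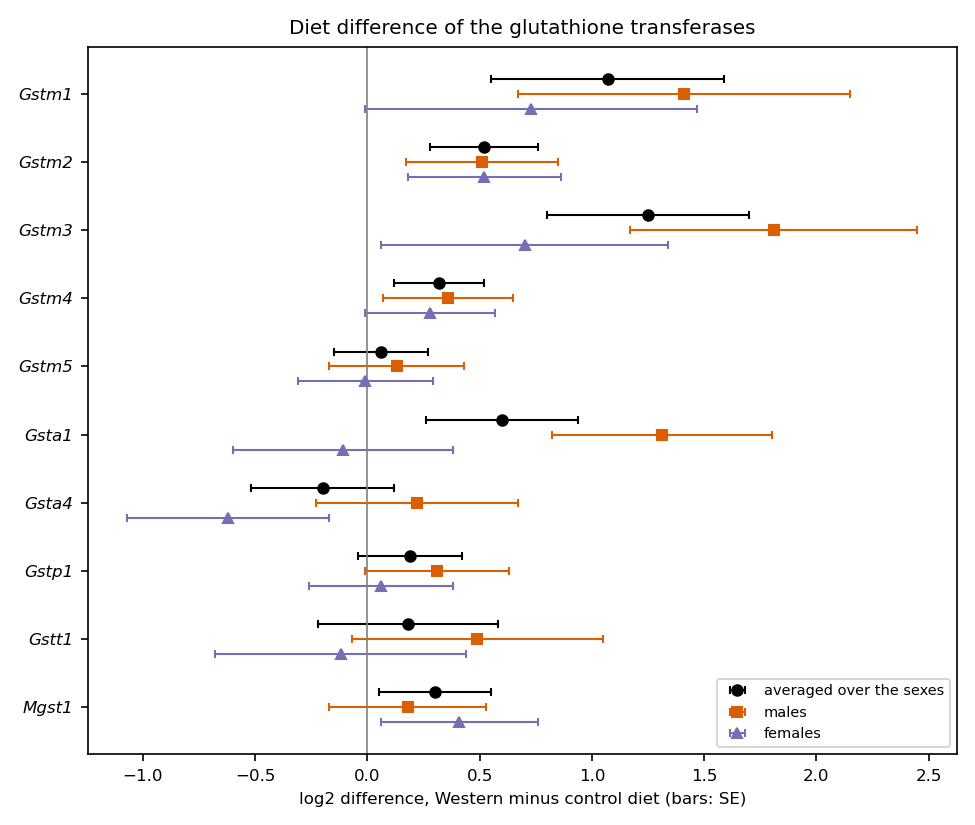
Log2 difference between Western and Control diet (horizontal axis) for each gene, averaged over the sexes (circles), in males (squares) and in females (triangles), with bars for the SE. All 10 male values lie above 0, and 4 of the female values lie below 0.

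The difference between the sexes in the diet response was tested directly, as the female minus the male difference. It was negative for 8 of the 10 genes, with a median of -0.428, while 34.9% of all genes had a positive value and their median was -0.136. With slide as a block it was negative for 5 of the 10, with a median of -0.01. Without the library labelled Control female 1 it was negative for 6 of the 10, with a median of -0.108. Without Control female 2 it was negative for all 10, with a median of -0.511. Gsta1 had the largest value, -1.42 ± 0.69 SE (limma, unadjusted p = 0.0835, adjusted p = 1), followed by Gstm3 with -1.10 ± 0.90 SE. The Gstm3 value was -0.08 with slide as a block and -0.34 without Western male 2. It was -0.47 without the library labelled Control female 1 and -1.74 without Control female 2. No gene passed an adjusted p of 0.05 (0% of genes), and 346 genes had an unadjusted p under 0.05, none of the 10 among them. The Gsta1 value was -1.14 within slide 1 and ran from -1.95 without Western male 1 to -0.89 without Western male 2. For the same difference all 8 smooth muscle markers (median 2.248) and all 6 measured fat cell markers (median 2.743) were positive. All 6 tuft cell markers (median -0.737) and 9 of 13 enterocyte markers (median -0.076) were negative. Their part in the values of the 10 genes was not tested.

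The third comparison, female against male averaged over the diets, gave a higher signal in females for 9 of the 10 genes, although Gstm5 differed by 0.00 after rounding. Mgst1 was the exception, at -0.22 ± 0.25 SE. The median over the 10 genes was 0.623, and 62.3% of all genes were higher in females. None of the 10 and no other gene passed an adjusted p of 0.05 with limma (0% of genes), and 821 genes had an unadjusted p under 0.05. Gstm2, Gstm4 and Gstt1 were among the 2.66% of genes that were higher in females at an unadjusted p under 0.05. The library labelled Control female 1 stands among the females in these values. All 5 measured erythrocyte markers were lower in females (median -1.115), 4 of them at an unadjusted p under 0.05 with limma. Of all 21303 genes, 254 were lower in females at that threshold. The summed erythrocyte signal was 16.41 to 89.62 in females and 52.16 to 150.1 in males. Of 13 enterocyte markers, 9 were higher in females, 3 of them at an unadjusted p under 0.05. Their part in the sex differences was not tested.

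Gstm2 averaged 1.10 ± 0.38 in females and 0.30 ± 0.45 in males (SD, n = 4 each), a difference of 0.80 ± 0.24 SE (limma, unadjusted p = 0.0153, adjusted p = 0.906). Gstm4 averaged -1.43 ± 0.18 in females and -2.05 ± 0.37 in males, a difference of 0.62 ± 0.20 SE (unadjusted p = 0.0238, adjusted p = 0.906). For both genes only Western male 2 among the males reached into the range of the females. Gstt1 averaged 3.67 ± 0.21 in females and 2.65 ± 0.78 in males, a difference of 1.02 ± 0.40 SE, or 2.02-fold (unadjusted p = 0.0435, adjusted p = 0.906). Its lowest female array, the library labelled Control female 1 (3.51), lay next to its highest male array, Western male 2 (3.47). Without the library labelled Control female 1 the differences were 0.77 for Gstm2, 0.61 for Gstm4 and 1.13 for Gstt1. Within slide 1 they were 0.74, 0.74 and 0.90. Gstm3 differed by 1.08 ± 0.45 SE and Gstm1 by 0.90 ± 0.52 SE between the sexes, and without that library by 0.77 and 0.48.

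The 10 genes fell into patterns by array. Profiles were centred on their own mean, and likeness was the mean absolute log2 difference between 2 centred profiles over the 8 arrays. Gstm2 and Gstm4 were the most alike pair of the 10 (0.124), and Gstm1 and Gstm3 came next (0.216). Gstm1 and Gstm3 were high on Western male 2, Western female 2 and the library labelled Control female 1, and low on both Control male arrays. Gsta1 had its lowest value on Control male 2 and its highest on Western male 2. Gstt1 and Gsta4 were also low on Control male 2 but highest on Control female 2, where Gstm1 and Gstm3 were below their means.

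**Figure D4:**
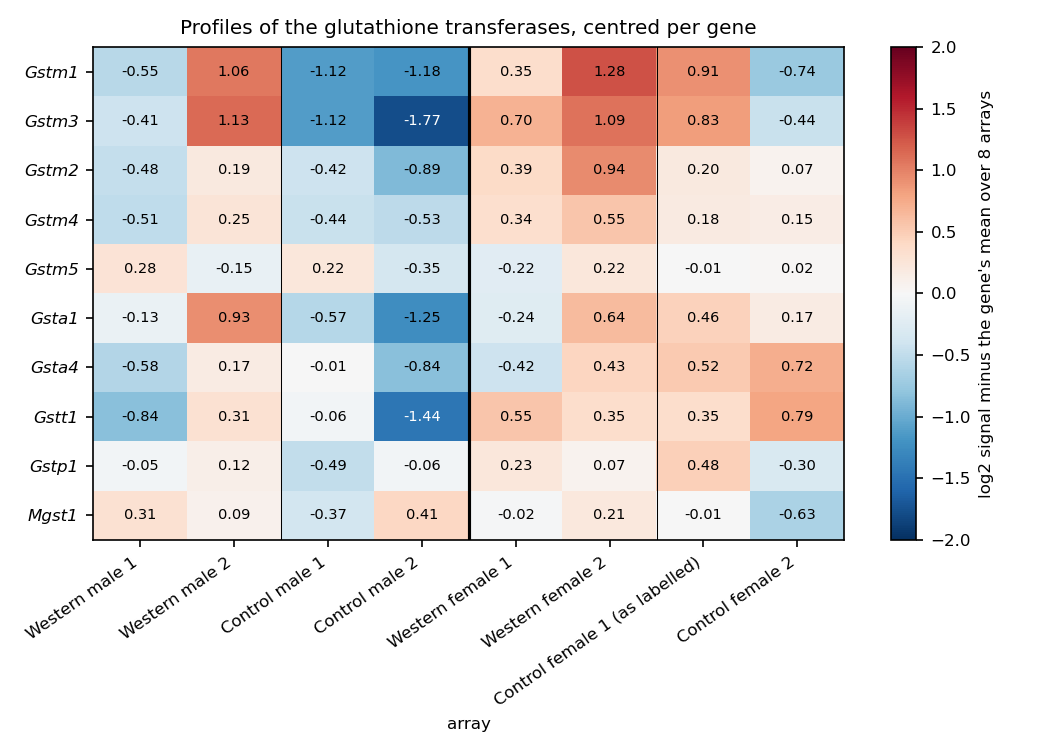
Log2 signal of each gene (rows) on each array (columns) minus the gene's mean over the 8 arrays, from blue (below the mean) to red (above it). Gstm1 and Gstm3 are at -1.12 on Control male 1 and at 0.91 and 0.83 on the library labelled Control female 1, and Gstm5, Gstp1 and Mgst1 vary least.

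The nearest neighbours were sought among 12392 other genes well above background on all arrays. The nearest to Gstm1 were Gstm3 (0.216), Retsat (0.243), the gene of retinol saturase, and Gsta3 (0.320), another alpha-class transferase. The nearest to Gstm3 were Gstm1, Retsat (0.243) and Acot1 (0.383), which encodes an acyl-CoA thioesterase. Retsat itself measured 3.1, 4.47, 4.17 and 4.47 on the Western arrays, against 2.18, 2.32, 4.68 and 3.37 on the Control arrays, so that the library labelled Control female 1 was its highest array. The nearest to Gstt1 were Slc16a11 (0.239), the monocarboxylate transporter gene, Fbp1 (0.245), which encodes an enzyme of gluconeogenesis, and the mu-class gene Gstm6 (0.250).

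Gsta1 lay outside the rule that picked those 3 genes by their range and was added after its values were seen. Its nearest neighbours were Gm10639 (0.055) and Gsta2 (0.157), which lie next to each other in the same gene cluster on chromosome 9. Gm10639 measured 5.32 and 6.24 in Western males and 5.08 and 6.04 in Western females, against 4.70 and 4.20 in Control males and 5.77 and 5.53 in Control females. Its diet difference was 1.33 in males and -0.09 in females, close to those of Gsta1 at 1.31 and -0.11. Whether the Gsta1 probe also measured these genes was not tested.

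The other glutathione transferases showed the same direction more often than not. Of 20 listed, 19 were tested, and 16 were higher and 3 lower on the Western diet, with a median of 0.199, while 40.5% of all genes were higher. None passed the adjusted p with limma. Mgst2, a microsomal enzyme that can make leukotriene C, measured 7.14, 7.82, 7.18 and 7.52 on the Western arrays, against 6.56, 6.60, 7.47 and 6.57 on the Control arrays. Its difference was 0.61 ± 0.27 SE, and the library labelled Control female 1 was again the Control array that overlapped. Gsta2 differed by 0.78 ± 0.37 SE and Gsta3 by 1.03 ± 0.57 SE (adjusted p = 0.995 each).

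Genes around the transferases in the pathway were taken from lists of glutathione supply, conjugate export, peroxidases, Nrf2 targets and xenobiotic receptors. No gene of these lists passed the adjusted p in the diet comparison. Of the genes for glutathione supply, 7 of 12 tested were higher and 5 lower on the Western diet (median 0.120). Gsr, which encodes the reductase that regenerates glutathione, differed by 0.52 ± 0.20 SE (limma, unadjusted p = 0.0402, adjusted p = 0.995), Gclm, the modifier subunit of the first enzyme of glutathione synthesis, by 0.44 ± 0.20 SE, and Chac2, which encodes a glutathione-degrading enzyme, by 0.26 ± 0.15 SE. Gclm measured 0.15, 0.27, 0.32 and 0.08 on the Western arrays, against -0.27, -0.38, 0.21 and -0.51 on the Control arrays.

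For the steps after conjugation the picture was mixed. Of 12 tested genes of conjugate export and mercapturate formation, 8 were higher and 4 lower (median 0.043). The exporter gene Abcc4 differed by 0.63 ± 0.30 SE and Nat8, whose enzyme acetylates cysteine conjugates, by -0.22 ± 0.24 SE. Of 12 peroxidase, glutaredoxin and glyoxalase genes, 8 were higher and 4 lower (median 0.108). The gastrointestinal peroxidase gene Gpx2 differed by 0.42 ± 0.28 SE, Glrx2 by 0.30 ± 0.19 SE and Glo1, whose enzyme removes methylglyoxal, by 0.23 ± 0.16 SE.

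Of 25 genes of Nrf2 and its targets outside glutathione metabolism, 22 were higher and 3 lower on the Western diet (median 0.179). Ugdh, which encodes the enzyme that makes UDP-glucuronate, measured 5.80, 6.79, 6.08 and 6.61 on the Western arrays, against 4.86, 5.06, 6.07 and 5.26 on the Control arrays. Its difference was 1.01 ± 0.31 SE, or 2.01-fold (limma, unadjusted p = 0.0181, adjusted p = 0.995). Akr1b8, an aldo-keto reductase gene, differed by 1.43 ± 0.55 SE. Me1, the NADPH-producing malic enzyme gene, had a difference of 2.66 ± 1.15 SE, with 3.37 on the library labelled Control female 1 and -0.71, -1.71 and -1.28 on the other Control arrays. Of 26 genes of xenobiotic receptors and their targets, 17 were higher and 9 lower (median 0.101). Within that list the cytochrome P450 gene Cyp2c55 differed by 1.56 ± 0.48 SE and Cyp2c66 by 0.74 ± 0.29 SE, and Ahrr, whose product represses the aryl hydrocarbon receptor, by -0.62 ± 0.21 SE (adjusted p = 0.995 each).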

How the data were processed

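Each deposited file was the output of 1 single-colour Agilent array (design 026655, Cy3) read with version 10.7.3.1 of Feature Extraction. The deposited processed signals are, per the file headers, linear intensity values from which that software had subtracted background, with no normalization between arrays. The 1377 control spots and 94 to 216 outlier spots per array were left out, no spot was saturated, and repeated spots of a probe were averaged. Log2 signals were taken relative to the 75th percentile of the array's spots, which lay between 486 and 902. The number of arrays, 8, limits the precision.

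Of 39429 probes, 26412 received a symbol by accession through RefSeq (GRCm38.p6, where the headers name mm9, so that probe positions are not given and the printed promoter coordinates are those of GRCm38.p6). A probe was kept if it was well above background on 2 or more arrays (25733 probes), and the probe with the highest mean stood for each of 21303 genes. Limma 3.58.1 in R 4.3.3 (data.table version 1.17.8, jsonlite 2.0.0) fitted 4 group means over all 8 arrays, with 4 residual and 2.01 prior degrees of freedom. P-values were adjusted over all genes by the Benjamini-Hochberg method at a threshold of 0.05. The fit was checked on simulated data. Promoters were aligned with Biopython 1.88.

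Named were all 10 genes with all probes and, of each other list, up to 3 genes with the smallest diet p among those well above background on all 8 arrays, of which 1 is not reported here. Nearest neighbours were printed for the 3 genes with the widest range. The genes and lists were chosen with earlier results of these data known. The alternatives were normexp background correction with an offset of 50 (on the median spot signal, as the files hold no mean signal), quantile normalization, another percentile base, other filters on dim probes, the mean over probes, blocks for replicate number, slide or scan day, values within slides, and each array left out.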

Additional observations from a re-analysis of the deposited data

Results flagged for a closer look

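Gstt1 measured 2.32 on Western male 1, against 3.47 on Western male 2 and 3.71 and 3.52 on the Western female arrays. It was flagged by Dixon's test for 4 samples, which took the 2 male and 2 female Western arrays as 1 group. The test made no allowance for the sex difference of Gstt1, 1.02 higher in females averaged over the diets. Chance gives such a value in about 1 in 20 groups.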

How the results depend on the processing

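Normexp correction, quantile normalization, the filters on dim probes and the mean over probes changed the direction of no diet difference of the 10 genes. Quantile normalization moved the median diet difference of all genes to 0.047, against -0.057, and the share of higher genes to 58.6%, against 40.5%, with 9 of the 10 genes higher as before. The percentile over probes well above background turned Gstm5 in females to 0.01. With slide as a block, Gstm4 and Gsta4 in males were -0.01 and -0.12, and Gstt1 was -0.20 averaged over the sexes and -0.28 in males. Within slide 1, with 1 array per group, the turned values were -0.06 for Gstm2, -0.07 for Gstm4, -0.57 for Gsta4 and -0.78 for Gstt1 in males, and -0.57 for Gstm1, -0.13 for Gstm3, -0.25 for Gstp1, 0.20 for Gstt1 and -0.01 for Mgst1 in females. Averaged over the sexes they were -0.07 for Gstm5, -0.13 for Gsta1, -0.29 for Gstt1, -0.06 for Gsta2, -0.28 for Gsta3 and -0.07 for Gpx2. Gstt1 was -0.43 within slide 3. The female and averaged values within slide 1 rest on the library labelled Control female 1. Gstm1 in females was -0.57 within slide 1 and 1.56 without that library. With each array left out in turn, the diet differences that changed sign averaged over the sexes ran from -0.08 to 0.20 for Gstm5, from -0.41 to 0.01 for Gsta4, from -0.01 to 0.38 for Gstp1 and from -0.16 to 0.53 for Gstt1. In males they ran from -0.03 to 0.74 for Gstm4, from -0.15 to 0.41 for Gstm5, from -0.20 to 0.63 for Gsta4, from -0.20 to 1.18 for Gstt1 and from -0.21 to 0.57 for Mgst1. In females they ran from -0.10 to 1.56 for Gstm1, from -0.23 to 0.21 for Gstm5, from -0.56 to 0.33 for Gsta1, from -0.33 to 0.45 for Gstp1 and from -0.34 to 0.10 for Gstt1. The number of the 10 genes higher on the Western diet was 8 to 9 when a Control female array was left out, an alternative chosen after the data were seen, and 7 to 10 over all arrays left out in turn. Counts of all genes past the adjusted p ran from 0 to 392 for females, 392 without the library labelled Control female 1 and 2 without Control female 2, from 0 to 2 for the difference between the sexes and from 0 to 3 for sex. The cause of these changes was not tested. Groups left with 1 array were taken to vary like the others. With replicate number as a block, 0 genes passed in any comparison and 1012 genes had an unadjusted p under 0.05 for diet, against 911, with 0 of the 10 genes among them, against 1. Deviations of same-numbered arrays correlated from -0.119 to 0.352, so the numbers were not taken to pair the arrays.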
